A study of Mus musculus with 6 samples.

Results

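The Myc network genes are the transcription factor genes that meet at Max, together with the non-coding neighbour of Myc. The members were chosen by name: Myc, Mycn, Mycl, Max, Mxd1, Mxd3, Mxd4, Mnt, Mga and Pvt1. All 10 were found among the 55421 genes of the deposited count table, and all 10 were among the 18375 genes abundant enough to be tested. The libraries were made from leukemia cells from the bone marrow of C57BL/6 mice. In both groups the cells carried AE9a (AML1-ETO9a, a shortened AML1-ETO fusion protein) from a retrovirus put into c-Kit+ blood stem and progenitor cells, and GFP+ leukemia cells had been passed into irradiated recipients. Donors were 6 to 8 weeks old and either wild type for Ddit4 (3 libraries, AE9a-Ddit4+/+) or Ddit4 knockouts (3 libraries, AE9a-Ddit4-/-), and no drug treatment was named. The labels do not say whether the libraries of a group come from separate leukemias. The study describes the cells as taken from the bone marrow of transplanted mice, but by its account fewer primary knockout leukemias had arisen than knockout libraries were made. Libraries may therefore descend from 1 primary leukemia, and p-values measure the spread between these libraries, not between independent leukemias. The comparison asks what differs between AE9a leukemia with and without Ddit4, an inhibitor of mTOR signaling that is induced by stress.

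Max is a small helix-loop-helix zipper protein that pairs with every other protein of the network and brings it to the E-box CACGTG. Pairs with Myc, N-Myc (from Mycn) or L-Myc (from Mycl) activate transcription, above all of genes for ribosome production and growth. Pairs with the Mxd proteins or Mnt recruit histone deacetylases and repress many of the same promoters, and Mga does so within a Polycomb complex. In blood, Myc is known for the proliferation of progenitors and is a driver in many leukemias, while Mxd genes are known to be active in cells that leave the cell cycle. Pvt1 is a long non-coding RNA gene that lies next to Myc and shares enhancers with it.

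The libraries held 62141558 to 72717681 counts. Ddit4, the targeted gene, was at 228, 161 and 342 CPM (counts per 1000000 of the scaled library total) in wild-type and at 84.9, 77.7 and 85.9 CPM in knockout libraries, so it was lower in all 3 knockout libraries but still counted. The study reports from a western blot that DDIT4 protein was absent in AE9a-Ddit4-/- leukemia cells, and RNA counts do not measure protein. The Y-linked gene Ddx3y was at 0.0589 to 0.0774 CPM in AE9a-Ddit4+/+ and at 88.2 to 125 CPM in AE9a-Ddit4-/- libraries, whereas Xist was at 566 to 1030 CPM against 20.3 to 129 CPM. Sex of the cells and Ddit4 genotype therefore cannot be told apart. Genes listed for the AE9a leukemia cell (Kit, Cd34, Runx1t1, Ptprc) summed to 95.6 to 223 CPM in AE9a-Ddit4+/+ and 1460 to 1890 CPM in AE9a-Ddit4-/- libraries. All 4 were higher in the knockout. Ptprc, a gene of leukocytes in general, made most of the wild-type sum. Mean levels in wild type and knockout were 108 and 578 CPM for Ptprc, 24.7 and 411 CPM for Kit, 5.92 and 519 CPM for Cd34, and 11.9 and 139 CPM for Runx1t1. Erythroid markers summed to 7730 to 16300 CPM against 523 to 1100 CPM, with 10 of 12 lower. Neutrophil markers summed to 6970 to 11400 against 1990 to 5170 CPM, with 5 of 12 lower and 1 higher. Megakaryocyte markers summed to 106 to 171 against 2290 to 3050 CPM (7 of 9 higher, 1 lower), and mast cell and basophil markers to 257 to 290 against 1170 to 1840 CPM (3 of 6 higher). Most of the latter knockout sum was Cpa3 (791, 1040 and 480 CPM) and Gata2 (579, 613 and 501 CPM). Of the tested genes of that list that were not called, Fcer1a and Ms4a2 had a lower mean in the knockout and Hdc a higher one. The sums were small for B cells (1.05 to 4.91 against 64.6 to 128 CPM, 6 of 7 higher) and T and NK cells (11.4 to 83.3 against 88.7 to 132 CPM, 8 of 10 higher). They were small as well for stroma and endothelium, taken as 1 list (5.76 to 10.4 against 153 to 189 CPM, 5 of 8 higher). Most of that knockout sum was Pecam1 (123, 143 and 144 CPM), and Col1a1, Col3a1 and Lepr were not called. Monocyte markers summed to 309 to 620 against 242 to 685 CPM, with 2 of 10 higher. No marker was at 0 in all libraries, but genes such as Gp6, Ms4a1, Vpreb1, Igll1, Cd3e, Cd3g, Klrb1c, Tpsb2, Pdgfra and Emcn were at or under 12 counts throughout the wild type. Mitochondrial genes took 5.03 to 7.91% of the counts in wild-type and 11.3 to 16.4% in knockout libraries. The part of these differences in the results on the Myc network was not tested.

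Of the 10 members, Myc, Mycn and Mxd4 were higher in AE9a-Ddit4-/- than in AE9a-Ddit4+/+ libraries past the threshold (adjusted p below 0.05 over all genes tested, edgeR), and no member was lower past it. Across all tested genes 19.4% were higher and 10.7% were lower. Without adjustment, 7 members had a p below 0.05 (5 higher, 2 lower), and DESeq2 called 5 higher and 2 lower. The groups did not overlap for 6 of the 10 members, against 50.1% of all tested genes. The median log2 fold change (knockout over wild type throughout) of the members was 0.98, beside 0.04 over all tested genes and -0.17 over the 8218 tested genes with a mean log2 CPM above 4. Shares this close to those of all genes say nothing particular about the network as a set, so the members are described singly. In bulk RNA a smaller number of cells of a type and less RNA per cell cannot be told apart.

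**Figure D1:**
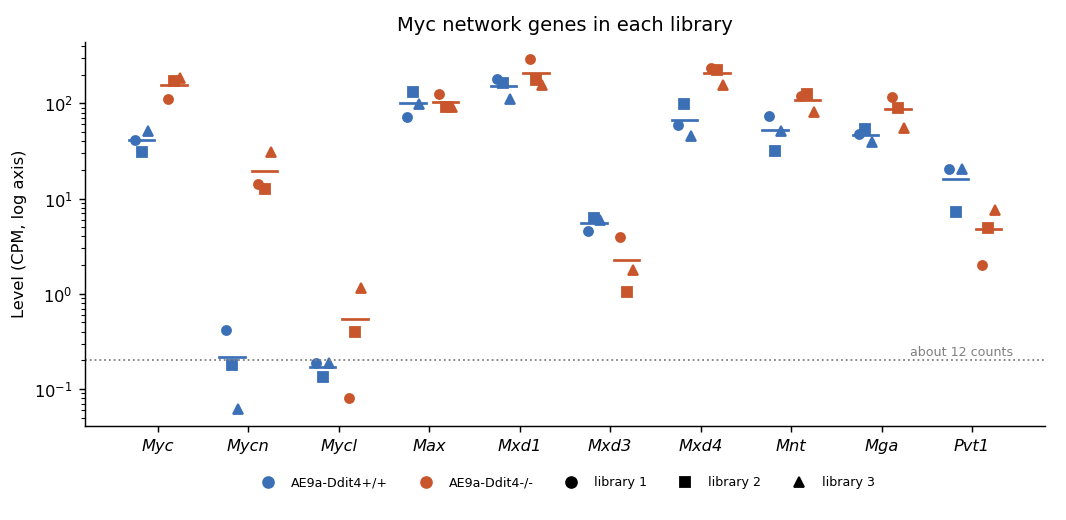
Level of each of the 10 genes in the 6 libraries, in CPM on a log axis. Blue symbols are AE9a-Ddit4+/+ and orange symbols AE9a-Ddit4-/- libraries, the symbol shape gives the library number, the horizontal bars are group means and the dotted line marks about 12 counts. Myc, Mycn and Mxd4 are higher in all 3 knockout libraries, Max symbols mix, and the wild-type Mycn and Mycl symbols sit near the dotted line.

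Myc (ENSMUSG00000022346, chr15:61985391-61990374 on GRCm38, plus strand, protein coding) was at 41.6, 30.6 and 51.5 CPM in AE9a-Ddit4+/+ libraries 1, 2 and 3. It was at 111, 171 and 184 CPM in the knockout libraries. The groups were well apart, since the lowest knockout library was 2.15 times the highest wild-type library. Mean Myc was 41.3 ± 10.4 CPM in the wild type and 155 ± 39.3 CPM in the knockout (SD, n = 3 each), which edgeR fitted as a log2 fold change of 1.91 with an SE of 0.28 (adjusted p = 0.00302). Myc kept this call in every alternative fit, with an adjusted p of at most 0.0175.

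Mycn (ENSMUSG00000037169, chr12:12936093-12941914, minus strand) encodes N-Myc, the Myc protein best known from the embryo, from neural tumors and, with Myc, from blood stem cells. The wild type had only 26, 12 and 4 counts (0.412, 0.177 and 0.0619 CPM). The knockout had 884, 764 and 2280 counts (14.2, 12.6 and 31 CPM). The lowest knockout library was thus 30.6 times the highest wild-type library. The mean went from 0.217 ± 0.178 CPM to 19.3 ± 10.2 CPM (SD, n = 3 each), and the fitted log2 fold change was 6.46, with an SE of 0.78 (edgeR, adjusted p = 0.00144). A total of 12 counts was taken as the limit of detection (0.163 to 0.198 CPM), and 2 of the 3 wild-type libraries were at or under it, so the size of this change is less certain than its direction.

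Mycl (ENSMUSG00000028654, chr4:122995652-123002485, plus strand) encodes L-Myc, known from lung tumors and dendritic cells. Its counts were 12, 9 and 12 in AE9a-Ddit4+/+ libraries, all at or under the limit of detection. In the AE9a-Ddit4-/- libraries 5, 24 and 84 counts were found (0.0803, 0.395 and 1.14 CPM), so that 2 of 3 lay above the limit and 1 below. The groups overlapped and the test was not passed (edgeR adjusted p = 0.214).

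Max itself (ENSMUSG00000059436, chr12:76937269-76962201, minus strand), the shared partner in the pairs described above, was at 72.4, 132 and 97.2 CPM in AE9a-Ddit4+/+ and 124, 92.1 and 92.5 CPM in AE9a-Ddit4-/- libraries. Each group had 1 library above the others, and the ranges overlapped. With means of 101 ± 30.1 against 103 ± 18.4 CPM (SD, n = 3 each), Max had a log2 fold change of 0.03 (edgeR, SE 0.26, adjusted p = 0.937), with a 95% interval of the difference from -0.48 to 0.54. Its sign turned with the scaling to library totals (-0.04) and without wild-type library 1 (-0.16) or knockout library 1 (-0.12).

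**Figure D2:**
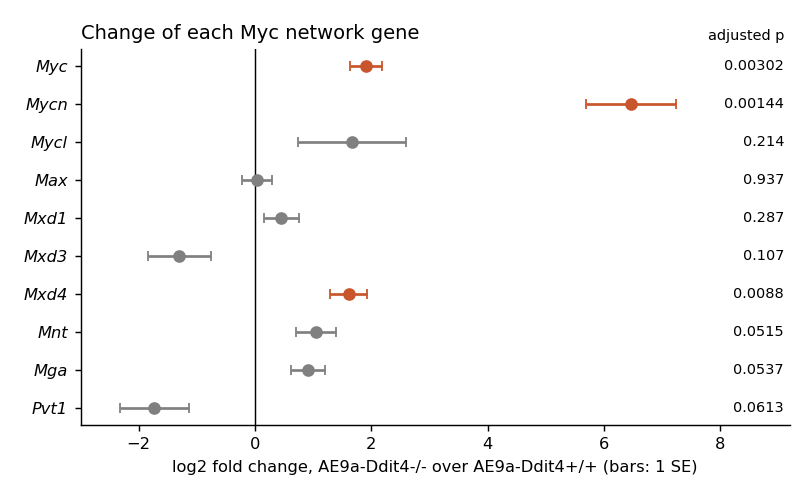
Log2 fold change of each member, AE9a-Ddit4-/- over AE9a-Ddit4+/+, with bars of 1 SE and the edgeR adjusted p at the right (n = 3 libraries per group). Orange marks the 3 genes past the threshold, Myc, Mycn and Mxd4, and grey the 7 that are not, of which Mnt, Mga and Pvt1 have adjusted p-values of 0.0515, 0.0537 and 0.0613.

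Among the partners that repress, Mxd4 was the one past the threshold. Mxd4 (ENSMUSG00000037235, chr5:34173883-34187720, minus strand) is a Mad family gene known from differentiating cells. AE9a-Ddit4+/+ libraries had 59.4, 97.3 and 45.6 CPM, and AE9a-Ddit4-/- libraries had 236, 226 and 157 CPM. All 3 knockout libraries were above all wild-type libraries, the lowest by 1.61 times the highest. From a mean of 67.5 ± 26.8 to 206 ± 43.1 CPM (SD, n = 3 each), Mxd4 gained 1.61 on the log2 scale (edgeR, SE 0.32, adjusted p = 0.0088), and the call held in every alternative fit (adjusted p at most 0.0368).

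Mnt (ENSMUSG00000000282, chr11:74830920-74845725, plus strand), the repressor known to be made in both dividing and resting cells, was at 74.4, 31.3 and 50.6 CPM in AE9a-Ddit4+/+ libraries. It was at 118, 125 and 80.8 CPM in AE9a-Ddit4-/- libraries, with no overlap. The log2 fold change of 1.05 (SE 0.34) missed the threshold narrowly (edgeR adjusted p = 0.0515). Without AE9a-Ddit4+/+ library 1, the wild-type library with the most Mnt, the adjusted p was 0.0279, and with DESeq2 it was 0.0184. It ran up to 0.143 over the alternatives, the highest being without AE9a-Ddit4-/- library 2.

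Mga (ENSMUSG00000033943, chr2:119897228-119969581, plus strand) encodes a very large protein that joins a T-box domain to the domain for pairing with Max. Its levels were 47.1, 53.3 and 38.9 CPM in AE9a-Ddit4+/+ and 117, 88.7 and 55.1 CPM in AE9a-Ddit4-/- libraries. These groups did not overlap either, but knockout library 3 came close to the wild type. Mga had a log2 fold change of 0.91 (edgeR, SE 0.30, adjusted p = 0.0537). It was 1.11 with an adjusted p of 0.021 without AE9a-Ddit4-/- library 3, and DESeq2 gave 0.0202. Without AE9a-Ddit4-/- library 1 it was 0.64 (adjusted p = 0.157), and the adjusted p was highest, at 0.161, without AE9a-Ddit4+/+ library 3.

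Mxd1 (ENSMUSG00000001156, chr6:86647042-86669161, minus strand) encodes Mad1, known to accumulate as myeloid cells mature. It was at 178, 165 and 111 CPM in AE9a-Ddit4+/+ and 291, 176 and 154 CPM in AE9a-Ddit4-/- libraries. Only knockout library 1 stood above the wild-type range. Its log2 fold change of 0.45 (SE 0.30, 95% interval -0.13 to 1.04) did not pass (edgeR adjusted p = 0.287).

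Mxd3 (ENSMUSG00000021485, chr13:55325168-55329823, minus strand) is the Mad gene that, unlike the others, is known from cells in S phase. It was at 4.53, 6.22 and 5.94 CPM in AE9a-Ddit4+/+ libraries and at 3.95, 1.05 and 1.77 CPM in AE9a-Ddit4-/- libraries. The knockout values were all below the wild-type values, library 1 by a narrow margin. The log2 fold change of -1.30 (SE 0.54) did not pass (edgeR adjusted p = 0.107). Without AE9a-Ddit4-/- library 1 it was -1.97 with an adjusted p of 0.0357, and with DESeq2 the adjusted p was 0.0391, whereas the other alternatives gave up to 0.216 (without AE9a-Ddit4-/- library 3). The last 105 bases of Mxd3 overlap Prelid1 on the other strand, which had 52410 counts over the wild-type and 38404 over the knockout libraries. Use of strand in the counting was not given in the sources used here, so the level of Mxd3 is uncertain.

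Levels can be compared between the members only per length, as CPM per kb of exon (all exons of a gene joined). The exons of all annotated transcripts were joined, whichever were expressed. The place of a member above or below another therefore depends on the annotation. On this scale Myc was at 15.2 ± 3.84 in the wild type and 57.1 ± 14.4 in the knockout, against 28.0 ± 8.37 and 28.6 ± 5.11 for Max (CPM per kb, SD, n = 3 each). Myc was below Max in every wild-type library and above it in every knockout library. The sum of Myc, Mycn and Mycl over Max was 0.771, 0.309 and 0.704 in the wild type and 1.3, 2.61 and 3.02 in the knockout. Mycn made up 0.806, 0.472 and 0.0987% of the sum of the Myc family in the wild type. In the knockout its share was 9.58, 5.72 and 12.1%. Myc thus remained the main activator transcript in all 6 libraries.

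The repressors among the members were together at 53.2, 47.6 and 37.1 CPM per kb in AE9a-Ddit4+/+ libraries (Mxd1, Mxd3, Mxd4, Mnt and Mga summed). They were at 104, 84.8 and 62 CPM per kb in AE9a-Ddit4-/- libraries. Their sum was above the level of Max in all 6 libraries. In AE9a-Ddit4+/+, Mxd1 had the highest mean (21.4 CPM per kb), followed by Mnt (11.3), Mxd4 (7.95), Mga (3.03) and Mxd3 (2.35), of which Mxd1 and Mnt overlapped in their libraries, as did Mnt and Mxd4, and Mga and Mxd3. In AE9a-Ddit4-/- the means of Mxd1 (29.3), Mxd4 (24.3) and Mnt (23.3) lay within their spread of each other, with SDs of 10.4, 5.08 and 5.13 CPM per kb. The ratio of Mxd4 to Mxd1 was 0.279, 0.492 and 0.343 in wild-type and 0.675, 1.07 and 0.847 in knockout libraries. Set against the repressors, the Myc family (summed CPM per kb) had ratios of 0.291, 0.239 and 0.513 in the wild type and 0.434, 0.787 and 1.25 in the knockout. Here wild-type library 3 lay above knockout library 1, so this ratio overlapped between the groups, whereas the ratio of the Myc family to Max and both sums did not. These sums and ratios are descriptions over the chosen members, with no test. Mxi1, a further Mad family gene that pairs with Max, is not a member and is not in the sums. Mxi1 was at 169, 52.4 and 49.9 CPM in wild-type and 43.1, 96.3 and 93.9 CPM in knockout libraries. With Mxi1 added per length, the repressor sum of wild-type library 1 would lie above that of knockout library 3. The gap between the groups in the repressor sum therefore holds for the members only and closes with Mxi1.

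**Figure D3:**
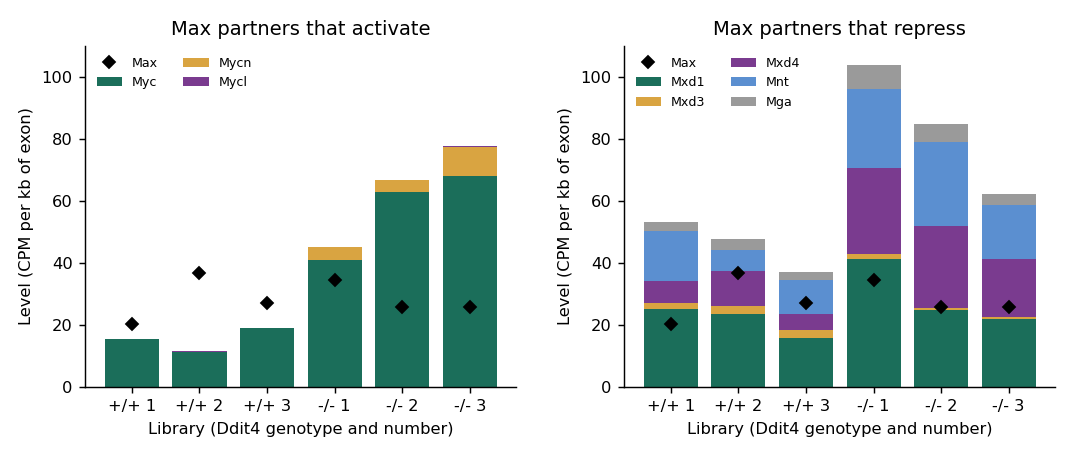
Levels per length (CPM per kb of exon) of the partners of Max among the members in each library, stacked by gene. Activating partners are at the left and repressing partners at the right, without Mxi1. The black diamonds give Max in both panels. The activator stacks are below the diamonds in the 3 wild-type libraries and above them in the 3 knockout libraries, while the repressor stacks are above the diamonds in all 6.

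The promoters of the members were searched for the E-box CACGTG, which reads the same on both strands, because Max pairs bind it. The window ran from 250 bases before to 50 bases after the RefSeq start site (GRCm38.p6). Of the 10 members, 8 were matched in the promoter table, and Myc and Pvt1 were not. CACGTG was present in 3 of the 8, Mxd4, Mnt and Max, beside 7.15% of all 32851 promoters and 9.49% of those of tested genes. It began 219 bases before the start site in Mxd4 and 123 bases before it in Mnt, and it spanned the start site in Max. The 250 bases before the start of 3 genes are shown 5′ to 3′ on the strand of the gene, with CACGTG in capitals: Mxd4 and Mnt as the repressor genes that hold the motif, and Mycn, the member with the largest change, which has none in this window.
Mxd4 (chr5:34187711-34187960, minus strand): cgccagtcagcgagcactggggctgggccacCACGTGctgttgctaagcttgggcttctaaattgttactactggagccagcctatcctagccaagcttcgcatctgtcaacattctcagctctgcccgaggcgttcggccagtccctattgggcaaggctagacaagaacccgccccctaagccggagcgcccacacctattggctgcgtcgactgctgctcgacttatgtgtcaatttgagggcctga
Mnt (chr11:74830674-74830923, plus strand): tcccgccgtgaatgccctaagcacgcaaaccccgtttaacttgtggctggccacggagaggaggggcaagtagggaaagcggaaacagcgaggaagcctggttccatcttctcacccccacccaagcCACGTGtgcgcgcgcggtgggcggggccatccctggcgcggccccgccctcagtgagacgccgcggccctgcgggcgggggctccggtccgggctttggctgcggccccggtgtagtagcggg
Mycn (chr12:12941837-12942086, minus strand): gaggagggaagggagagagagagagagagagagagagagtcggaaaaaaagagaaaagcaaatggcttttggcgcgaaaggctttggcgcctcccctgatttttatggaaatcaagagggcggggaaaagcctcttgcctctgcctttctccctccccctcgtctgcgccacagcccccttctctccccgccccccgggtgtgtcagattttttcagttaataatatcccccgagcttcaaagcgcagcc

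A match is a description of letters and not of a bound site. TGTGGT, a form of the core bound by Runx1, whose DNA-binding part AE9a keeps, was searched on both strands as well (ACCACA on the other strand). It was in none of the 8 windows, beside 16.8% of all promoters. No match of it could therefore overlap CACGTG there. Other forms of the Runx1 core were not searched, so nothing is said of them.

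Pvt1 (ENSMUSG00000097039, chr15:62037986-62378096, plus strand, lincRNA) starts 47.6 kb after the end of Myc. It was at 20.6, 7.26 and 20.5 CPM in AE9a-Ddit4+/+ libraries. In AE9a-Ddit4-/- libraries it was at 2.02, 4.95 and 7.57 CPM. The groups just overlapped, as wild-type library 2 lay below knockout library 3. The log2 fold change of -1.73 (SE 0.59) was opposite in sign to that of Myc and missed the threshold (edgeR adjusted p = 0.0613). It was -2.08 with an adjusted p of 0.0271 without AE9a-Ddit4+/+ library 2, and DESeq2 gave an adjusted p of 0.012. The other alternatives reached 0.16, without AE9a-Ddit4+/+ library 3. Small RNA genes and a pseudogene inside Pvt1 had at most 22 counts per group.

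Genes of chromosome 15 as a whole were higher in the knockout. The 343 tested genes there with a mean log2 CPM above 4, members left out, had a median of 0.39 on the log2 fold scale. The medians of the other 7 chromosomes that hold members ran from -0.44 to -0.16. Of the 343 genes, 111 were higher and 16 lower past the threshold. Among all 8218 tested genes with a mean log2 CPM above 4, 15.1% were higher and 17.0% lower. By knockout library the chromosome 15 median was 0.33, 0.37 and 0.49. Over all 693 tested genes of the chromosome the median was 0.59, and relative to this median the log2 fold change of Myc was 1.32 instead of 1.91, and that of Pvt1 -2.32. Within 5 Mb of Myc, with Myc and Pvt1 left out, 39 genes were tested, with a median of 0.49. Of these 15 were higher and 2 were lower, beside 19.4% and 10.7% of all tested genes. The only other tested gene within 1 Mb was the pseudogene Tsg101-ps, which had a log2 fold change of 0.49 and did not pass (edgeR adjusted p = 0.63). Copy number was not measured, and its part in the level of Myc was not tested.

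**Figure D4:**
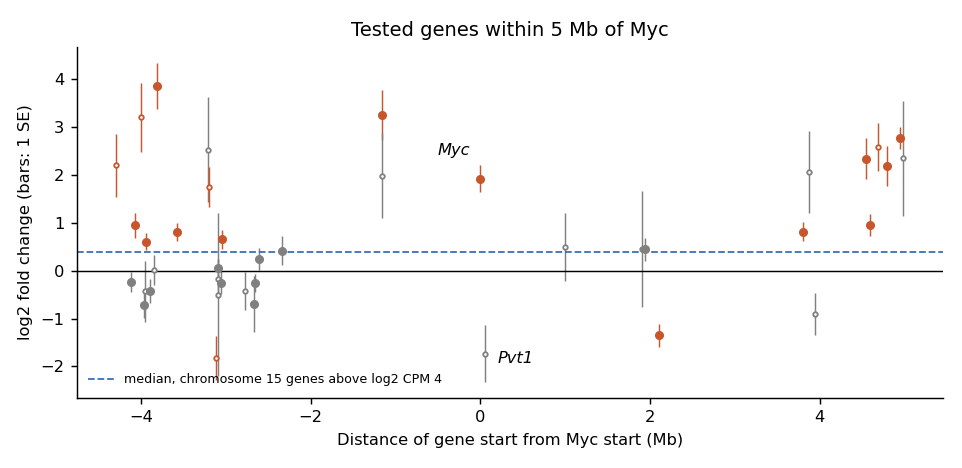
Log2 fold change (AE9a-Ddit4-/- over AE9a-Ddit4+/+, bars of 1 SE) of each tested gene within 5 Mb of Myc on chromosome 15, against the distance of its start from the start of Myc in Mb. Orange marks genes past the threshold and grey those that are not, filled symbols have a mean log2 CPM above 4, and the dashed line is the chromosome 15 median of 0.39. Myc lies above the line, Pvt1 below it and below 0.

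The remaining Max partner and the parallel Mlx arm were examined next. Mlx is a relative of Max that pairs with the glucose sensors MondoA (from Mlxip) and ChREBP (from Mlxipl), and Txnip and Arrdc4 are their best known targets. Of the 5 genes tested, 1 was higher (background 19.4%) and 1 was lower (background 10.7%). Arrdc4 was higher, at 5.81, 22.3 and 6.03 CPM against 39.7, 40.6 and 43.2 CPM, a log2 gain of 1.85 (edgeR, SE 0.54, adjusted p = 0.0359). Mlx was lower, at 26.3, 28.3 and 31.9 CPM against 19.5, 15.3 and 10.1 CPM, for a log2 fold change of -0.95 (edgeR, SE 0.29, adjusted p = 0.0428). Txnip, at 2400 ± 1480 against 901 ± 320 CPM, had a log2 fold change of -1.41 and an adjusted p of 0.0547. Mlxip had a log2 fold change of 0.88 (adjusted p = 0.0592), and Mxi1, the Mad family gene that pairs with Max, one of -0.22 (adjusted p = 0.785). Mlxipl had 0 to 51 counts per library and was not tested. The calls of Arrdc4 and Mlx were lost in some alternative fits, with adjusted p-values of up to 0.1 and 0.126.

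The proteins that work with the network were read from lists of cofactors, corepressors, Mga complex subunits and enzymes of Myc protein turnover. Of 18 Myc cofactors tested, 3 were higher and none was lower past the threshold in edgeR, while at an unadjusted p below 0.05 3 were higher and 2 lower. The 3 were Ep300, the acetyltransferase p300 (144 ± 26.5 to 257 ± 26.3 CPM, log2 fold change 0.83, edgeR adjusted p = 0.0178), the elongation factor subunit Paf1 (0.69, adjusted p = 0.028) and Wdr5 (0.65, adjusted p = 0.0379), which holds Myc on chromatin. The cofactor median was -0.04. The 11 tested subunits of corepressors that Mxd and Mnt recruit, such as Sin3, had a median of -0.34. Of the 10 other subunits of PRC1.6, the Polycomb complex of Mga, the E3 ligase gene Rnf2 was higher (66.2 ± 7.66 to 199 ± 49.7 CPM, log2 fold change 1.59, adjusted p = 0.0028). L3mbtl2, a chromatin reader of the same complex, was lower (38.9 ± 4.50 to 17.6 ± 5.72 CPM, log2 fold change -1.15, adjusted p = 0.0236). Of 14 turnover genes 1 was higher, Ppp2r5a, a subunit of the phosphatase PP2A that destabilizes Myc (0.71, adjusted p = 0.0224). Among these genes Rnf2 alone kept its call in every alternative fit, and the highest adjusted p was 0.0653 for Ep300, 0.0967 for Paf1, 0.14 for Wdr5, 0.0785 for L3mbtl2 and 0.089 for Ppp2r5a. Each share called among the cofactors, Mga complex subunits and turnover genes was below the 19.4% (higher) or 10.7% (lower) of all tested genes. All 18 cofactors and 14 turnover genes had a mean log2 CPM above 4. Among tested genes of that abundance 15.1% were higher and 17.0% lower, and the 16.7% of cofactors that were higher lay near this share. Values after ± are SDs with n = 3 each.

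Of the genes known to be activated by Myc, few were called higher, while the share called lower was that of abundant genes in general. Of 54 such genes, mainly for ribosome production, nucleotide synthesis and growth, 53 were tested (all with a mean log2 CPM above 4, and Tert was not tested). The fold change was negative for 48 and positive for 5, with a median of -0.71. Among the 8218 tested genes above that cut-off, a set not matched to the list in level, it was negative for 4828, with a median of -0.17. At an unadjusted p below 0.05 (edgeR), 16 genes of the list were lower and 1 was higher, beside 3197 and 4591 of all 18375 tested genes. Past the threshold 9 were lower (17.0%, the same 17.0% as among the 8218 genes above the cut-off, and 10.7% of all tested genes). Only 1 was higher (1.89%, beside 15.1% of the genes above the cut-off and 19.4% of all tested genes). The cyclin D2 gene Ccnd2 fell from 184, 104 and 159 to 23.0, 18.3 and 27.8 CPM, which is -2.69 on the log2 scale (edgeR, SE 0.28, adjusted p = 0.000898). The nucleoside diphosphate kinase gene Nme1 fell from 202 ± 70.5 to 57.0 ± 24.9 CPM (-1.82, adjusted p = 0.0161), and Rrp12, for ribosome export, from 96.8 ± 38.1 to 31.2 ± 12.8 CPM (-1.63, adjusted p = 0.0244). In the other direction the hexokinase gene Hk2 rose from 31.8 ± 7.54 to 76.0 ± 13.7 CPM (log2 fold change 1.26, adjusted p = 0.00943). Of these 4 genes only Ccnd2 kept its call in every alternative fit, the highest adjusted p being 0.0623 for Nme1, 0.0958 for Rrp12 and 0.0516 for Hk2. The list depended on AE9a-Ddit4-/- library 1, where its median was -1.65, against -0.27 and -0.46 in libraries 2 and 3. Without this library the median was -0.41 and 3 genes were lower. There were 2, 2 and 3 lower without AE9a-Ddit4+/+ library 1, AE9a-Ddit4+/+ library 3 and AE9a-Ddit4-/- library 3, and 2 higher without any 1 of the AE9a-Ddit4+/+ libraries or without AE9a-Ddit4-/- library 2. CACGTG was found in 18 of the 60 promoters of this list that were in the table (30.0%).

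Genes known to be repressed by Myc were divided. Of 10 tested, 3 were higher (30.0%, beside 19.4% of all tested genes) and 3 were lower (30.0%, beside 10.7%), with a median log2 fold change of 0.97. Ndrg1 and Ndrg2, named for being held down by N-Myc and Myc, rose from 31.5 ± 7.33 to 215 ± 11.8 CPM (2.77, edgeR adjusted p = 0.000378) and from 6.73 ± 0.703 to 76.4 ± 26.9 CPM (3.51, adjusted p = 0.000495). Ndrg1 lies on chromosome 15 within 5 Mb of Myc. Cdkn1c, for the cell cycle inhibitor p57, rose from 1 ± 0.703 to 7.18 ± 2.35 CPM (2.84, adjusted p = 0.0122). Cdkn2b, for the inhibitor p15, fell from 2.61 ± 0.0776 to 0.253 ± 0.0613 CPM (-3.36, adjusted p = 0.00221). The stress gene Gadd45a fell by 2.21 on the log2 scale (adjusted p = 0.00518), and Fth1, the ferritin heavy chain gene, fell by 0.57 (adjusted p = 0.0464). Inhibitors of the cell cycle thus stood on both sides. All of these calls except that of Fth1 (adjusted p up to 0.136) held in every alternative fit.

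Of 15 transcription factor genes known to act on Myc, 3 were higher (20.0%, near the 19.4% of all tested genes) and 3 were lower (20.0%, beside 10.7%). Of the 15, 14 had a mean log2 CPM above 4, where 15.1% of tested genes were higher and 17.0% lower. Erg, an ETS factor of stem cells and megakaryocytes, rose most, from 1.73 ± 0.431 to 99.7 ± 19.0 CPM (log2 fold change 5.84, SE 0.31, edgeR adjusted p = 0.000129). Myb, needed by progenitors, rose from 134 ± 10.4 to 231 ± 13.9 CPM (0.78, adjusted p = 0.0104), and the cytokine signal transducer gene Stat5a from 182 ± 6.94 to 263 ± 15.1 CPM (0.53, adjusted p = 0.0373). E2f1, of the entry into S phase, fell from 57.6 ± 11.3 to 21.3 ± 8.50 CPM (-1.43, adjusted p = 0.02). Lmo2, a bridging protein of stem and erythroid cells, fell from 78.1 ± 35.9 to 25.4 ± 5.63 CPM (-1.62, adjusted p = 0.0201), and Foxm1, of late cell cycle stages, from 75.0 ± 8.57 to 33.9 ± 16.5 CPM (-1.15, adjusted p = 0.0473). The call of Erg held in every alternative fit, while the highest adjusted p was 0.0576 for Myb, 0.135 for Stat5a, 0.0665 for E2f1, 0.0745 for Lmo2 and 0.117 for Foxm1. Megakaryocyte markers were higher and erythroid markers were lower in the same libraries, as given above, and their part in the levels of Erg and Lmo2 was not tested.

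**Figure D5:**
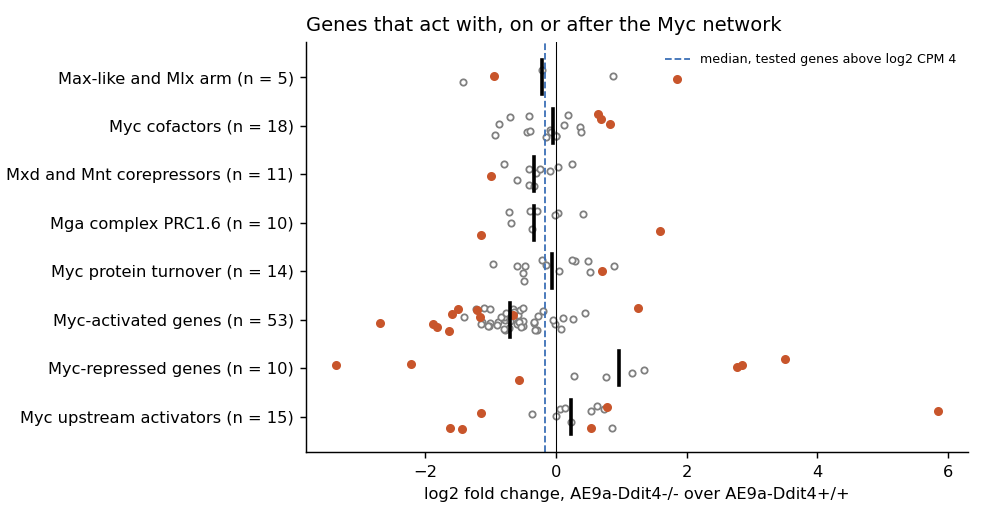
Log2 fold change (AE9a-Ddit4-/- over AE9a-Ddit4+/+) of each tested gene of the 8 lists that work with, on or after the network. Orange points are past the threshold, open grey points are not, black bars are list medians and the dashed line is the median of -0.17 of tested genes with a mean log2 CPM above 4. The median of the Myc-activated genes lies left of the line at -0.71 and that of the Myc-repressed genes right of it at 0.97, with called genes on both sides.

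The genes whose pattern over the 6 libraries was nearest to that of Myc were found by the root mean square difference of centred log2(CPM + 0.1) values among 8212 genes. Bin2 on chromosome 15, for a membrane-bending protein of blood cells, was nearest (0.121), followed by Lgals3bp (0.162), Dnmt3b (0.262), Clec4e (0.265) and Arsa, also on chromosome 15 (0.266). Bin2 went from 148 ± 35.9 to 500.0 ± 116 CPM and Lgals3bp, for a secreted glycoprotein, from 97.3 ± 21.4 to 363 ± 83.9 CPM. Dnmt3b, a DNA methyltransferase gene of stem cells, went from 16.2 ± 3.13 to 81.2 ± 21 CPM. The likeness rests mostly on the difference between the groups, and the points share the libraries and their depth, so it is given with no test.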

How the data were processed

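RNA-seq had been made from AE9a leukemia cells of 2 genotypes with 3 libraries each, grouped by their titles. The authors deposited 1 table of read counts per gene, not normalized; the aligner, counting tool, annotation and use of strand were not given in the sources used here, and the submitters' processing notes name the builds GRCm38 and mm10. The kit was an mRNA kit by the labels but a directional one, after rRNA depletion, by the study's methods. Totals were 62141558 to 72717681 counts. Low counts piled up at multiples of 4, so counts do not stand for independent molecules, and the limit of detection was set at 12 counts. It covers counting error only. A spreadsheet had turned 27 symbols into dates, which were restored from the identifiers. Positions and exon lengths were read from GENCODE M21.

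Differential expression was tested with edgeR 4.0.16 in R 4.3.3 (filterByExpr, TMM factors of 0.921 to 1.05, quasi-likelihood F-test with robust estimation, genotype as the only term), which left 18375 genes. P-values were adjusted by the Benjamini-Hochberg method over these, with a threshold of 0.05. The SE is the absolute log2 fold change over the square root of F, and 95% intervals are 1.96 SE to each side. CPM used TMM-scaled totals. The fit was tested on simulated data. Alternatives were other scalings and filters, DESeq2 1.42.0, counts divided by 4, removal of mitochondrial genes, a replicate block, a threshold of 0.01 and leaving out each library in turn. The members and lists were chosen with earlier results of these data known. Named are all members, up to 3 called genes per direction of each list, the genes of the Mlx arm, tested genes within 1 Mb of Myc and the 5 genes nearest to Myc in profile. A called gene of the corepressor list is not reported here.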

Additional observations from a re-analysis of the deposited data

How the results depend on the processing

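Myc, Mycn and Mxd4 kept direction and call in every alternative that tested them (Mycn could not be tested under the filter of 10 counts per library). The members higher past the threshold were 5 with DESeq2, counts divided by 4 or mitochondrial genes removed, and 3 to 4 with 1 library left out. Those lower were 2 with DESeq2, 1 with counts divided by 4, and 0 to 1 with 1 library left out. The added calls were of Mnt, Mga, Mxd3 and Pvt1, and their cause was not tested. The log2 fold change of Max turned to -0.04 with library totals and ran from -0.16 to 0.28 with 1 library left out. All genes higher were 2341 under that filter (fewer genes tested), 2177 with the replicate block and 1964 at a threshold of 0.01. All genes lower were 787 with the block, 712 at 0.01, and 1089 to 2078 with 1 library left out: 1168 and 1089 without AE9a-Ddit4+/+ library 1 and 3, and 1157 without AE9a-Ddit4-/- library 1. Of the Myc-activated genes, 2 were higher with no low-count filter, 0 with the block, and 1 to 2 with 1 library left out. Lower were 12 with DESeq2 or with library totals and 11 with counts divided by 4, against 9 in the main fit. The number lower was 7 with no low-count filter or with mitochondrial genes removed, 1 with the block and 1 at 0.01. It was 2 to 10 with 1 library left out. The chromosome 15 median was 0.29 to 0.43 with 1 library left out. The replicate numbers gave no sign of pairing, as same-numbered deviations correlated at -0.356, -0.392 and 0.018. The highest correlation was 0.421, between AE9a-Ddit4+/+ library 2 and AE9a-Ddit4-/- library 1. Deviations from a mean of 3 libraries depend on each other, so this check cannot settle whether samples were paired. The block added no call among the members. Depth limits Mycl, at or under 12 counts in 4 of 6 libraries.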

Other observations

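Within each group the level of Pvt1 had the same order over the libraries as that of Myc or nearly so, although the groups differed in opposite directions. AE9a-Ddit4+/+ library 2 was lowest for both Myc (30.6 CPM) and Pvt1 (7.26 CPM). Among AE9a-Ddit4-/- libraries, library 1 was lowest for Myc (111 CPM) and Pvt1 (2.02 CPM), and library 3 was highest for both (184 and 7.57 CPM). This was chosen after the values were seen, and 3 libraries per group do not allow a test of it.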
